A study of Mus musculus with 14 samples.

Results

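The 6 genes described here encode proteins that move sodium and calcium across the surface membrane of the heart muscle cell: the sodium-calcium exchanger Slc8a1, the plasma membrane calcium pumps Atp2b1 and Atp2b4, the sodium pump beta subunit Atp1b1, and the small sodium pump regulators Fxyd1 and Fxyd5. They were taken from the count table by gene symbol, 6 of 23337 genes, and all 6 passed the filter on low counts. The KO group (n = 7 libraries) came from Rosa-Cas9GFP mice, a strain with Cas9 and GFP inserted at Rosa. These mice received AAV-Ryr2gRNA, an adeno-associated virus named for a guide RNA against Ryr2, on postnatal day 1. The Ctrl group (n = 7 libraries) came from Rosa-Cas9GFP mice of the same kind that received AAV-Cre on the same day. The labels name no animals, so the number of mice per group is not known. Cardiomyocytes of both groups were isolated by Langendorff perfusion at 4 weeks of age and purified by fluorescence-activated sorting. The labels do not say if Cre was on the AAV-Ryr2gRNA virus too, so the effects of guide and vector cannot be told apart.

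The sodium-calcium exchanger uses the inward sodium gradient to carry calcium out of the cell and is the main route by which a heart muscle cell sheds the calcium that enters at each beat. The sodium pump, built of a catalytic alpha subunit, a beta subunit and an FXYD protein, keeps that gradient up. The plasma membrane calcium pumps use ATP to export calcium, carry a small part of calcium export in heart muscle and also serve in signalling.

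Library totals ran from 5689335 to 13165662 counts. Ryr2, the calcium release channel that the guide is named for, had 225, 324 and 371 CPM (read counts scaled to library size by TMM; lowest, median and highest) in KO libraries, against 602, 649 and 763 CPM in Ctrl libraries, so KO libraries kept 45.8% of the mean Ctrl level. All 8 cardiomyocyte markers (Myh6, Tnnt2, Actn2, Ttn, Tnni3, Pln, Mb and Ryr2) were counted in every library, with a sum of 70501 to 95885 CPM in KO libraries and 87615 to 102604 CPM in Ctrl libraries. The sum includes Ryr2, and 5 of the 8, Ryr2 among them, were called lower in KO and none higher. Of all tested genes 13.7% were called lower. The libraries with sample indices 7 to 10 (KO replicates 4 and 5 and Ctrl replicates 4 and 5) stood apart from the other 10 on the second principal component, and the labels name no batch for them. In these 4 libraries the summed levels of 7 fibroblast markers were 1057 and 1156 CPM in KO and 567 and 568 CPM in Ctrl, against 151 to 348 CPM in the other KO libraries and 176 to 221 CPM in the other Ctrl libraries. The sums of 10 macrophage markers were 264 and 414 CPM in KO and 100.3 and 107 CPM in Ctrl there. In the other libraries they were 57.7 to 89.6 CPM in KO and 22.4 to 56.8 CPM in Ctrl. Over all 14 libraries 3 of 8 tested macrophage markers were called higher in KO, against 14.5% of all tested genes.

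Slc8a1 and Atp2b1 were higher in KO, and none of the 6 genes was called lower. These were 2 of 6 genes higher, where 14.5% of all 11170 tested genes were called higher and 28.2% were called in either direction (edgeR quasi-likelihood test, Benjamini-Hochberg-adjusted p under 0.05 over all tested genes). The groups did not overlap for Slc8a1 alone among the 6, while 10.5% of tested genes had groups that did not overlap. With 6 genes, these counts are not far from those shares. Atp1b1, Fxyd1, Fxyd5 and Atp2b4, which like Slc8a1 and Atp2b1 serves calcium export, did not pass the test.

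**Figure D1:**
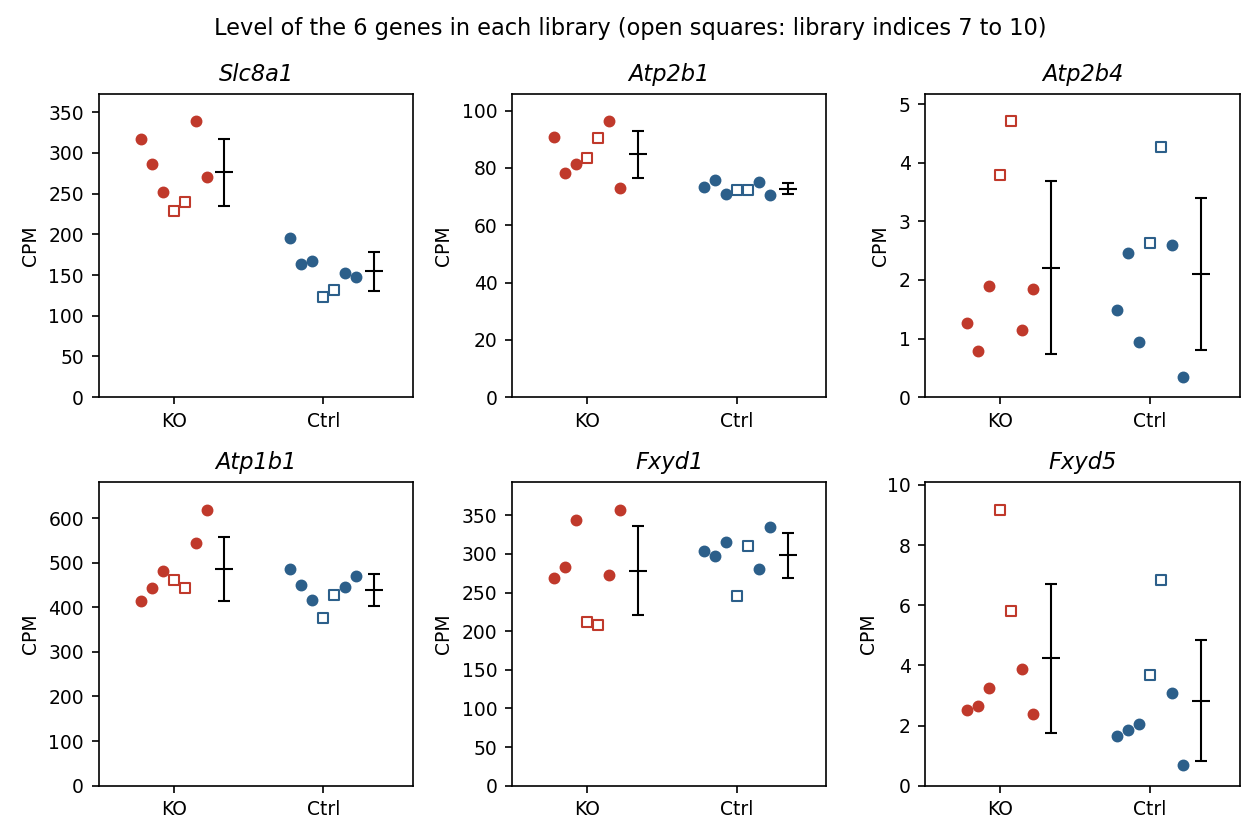
Level of each of the 6 genes in CPM (vertical axis, from 0) in the 7 KO and 7 Ctrl libraries; each point is a library, open squares are library indices 7 to 10, and bars beside the points give mean ± SD. Every KO library lies above every Ctrl library for Slc8a1, 6 of 7 do for Atp2b1, and the open squares are the highest KO points for Atp2b4 and Fxyd5.

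Slc8a1, which encodes the cardiac exchanger NCX1, had 228, 271 and 339 CPM (lowest, median and highest) in KO libraries, against 123, 153 and 195 CPM in Ctrl libraries. Every KO library was above every Ctrl library. In each group the libraries with indices 7 to 10 were the lowest, at 228 and 240 CPM in KO and 123 and 132 CPM in Ctrl. The other libraries held 252 to 339 CPM in KO and 148 to 195 CPM in Ctrl. The means were 276 ± 40.8 CPM in KO and 155 ± 24.0 CPM in Ctrl (SD, n = 7 each), which put KO at 179% of Ctrl. KO exceeded Ctrl by 0.84 on the log2 scale (SE 0.106, 95% interval 0.61 to 1.06, adjusted p = 2.0e-05, edgeR quasi-likelihood test), the 439th highest of 11170. In these sorted cells pooled per library, more cells of a type and more RNA per cell cannot be told apart. The authors' deposited table gives a log2 fold change of 0.82 for the same gene.

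The Slc8a1 gene model spans 81373105 to 81738377 of chromosome 17 (mm10, minus strand), with 11 merged exons that cover 18599 bp, and no other gene model of the table shares its exons. Its exonic length is among the longest tested, so genes of at least 10000 bp were set beside it. These 220 genes had a median log2 fold change of 0.02, against a median of 0.01 over all tested genes. Of the 220 genes 13.2% were called higher and 7.27% lower. Among the 1290 genes with a mean level of 100 to 400 CPM the median was -0.08, with 14.3% called higher and 31.5% called lower. Over all tested genes 14.5% were called higher and 13.7% lower. The part of length or level in the Slc8a1 difference was not tested. The 7 smooth muscle and pericyte markers mark cells that also use this exchanger. They summed to 1101 to 1939 CPM in KO libraries and 589 to 977 CPM in Ctrl libraries. Of these 7 markers 3 were called higher, against 14.5% of all tested genes. The 4 atrial cardiomyocyte markers (Nppa, Myl7, Sln and Myl4) summed to 494 to 2060 CPM in KO libraries and 270 to 957 CPM in Ctrl libraries, and 1 of the 4, Nppa, was called higher. The log2 fold changes of the others were -0.67 for Myl7, -0.75 for Sln and -0.07 for Myl4, which did not pass (adjusted p = 0.62, 0.57 and 0.95, edgeR). Atrial muscle cells express this exchanger too. The part of these cells in the Slc8a1 level was not tested.

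The sequence just before the annotated start is shown because Slc8a1 is the gene with the clearest difference. It is the 250 bases upstream of the RefSeq start (GRCm38.p6, chr17:81738388-81738637, minus strand), which lies 10 bp from the start in the count table, and capitals mark matches to the searched motifs.
Slc8a1: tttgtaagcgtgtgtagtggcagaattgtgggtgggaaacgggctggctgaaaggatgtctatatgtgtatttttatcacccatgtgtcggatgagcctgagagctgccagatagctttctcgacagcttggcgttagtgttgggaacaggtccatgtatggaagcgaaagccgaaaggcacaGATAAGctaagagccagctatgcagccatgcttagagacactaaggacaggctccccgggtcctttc
A single match was found, GATAAG (the core of a GATA factor site), 67 bases before the start. The same search on both strands covered the E-box CACGTG, the cyclic AMP response element TGACGTCA, the C/EBP-ATF response element TGATGCAA, the GC box GGGCGG and the TATA box TATAAA. Of the 32851 promoter windows in the RefSeq table, 6.55% hold GATAAG in the 250 upstream bases.

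Of the other exchangers of sodium for calcium, Slc24a2 and the mitochondrial exchanger gene Slc8b1 (listed under its older symbol Slc24a6) passed the filter, and Slc8a2 and Slc8a3, the paralogs of Slc8a1 known from brain and skeletal muscle, did not. Slc24a2, a potassium-dependent exchanger known from neurons, rose, at a low level. It had 2.65, 5.06 and 8.04 CPM (lowest, median and highest) in KO libraries, against 0.905, 2.30 and 3.27 CPM in Ctrl libraries, so the groups overlapped. The difference was 1.20 on the log2 scale (SE 0.275, adjusted p = 0.0034, edgeR). Slc24a6 had a log2 fold change of 0.55 and did not pass (adjusted p = 0.11, edgeR).

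Atp2b1, which encodes the widely expressed calcium pump PMCA1, had 72.9, 83.4 and 96.4 CPM (lowest, median and highest) in KO libraries, against 70.4, 72.3 and 75.7 CPM in Ctrl libraries. KO replicate 7 lay inside the Ctrl range, and the other 6 KO libraries lay above it. The means were 84.8 ± 8.17 CPM in KO and 72.8 ± 2.01 CPM in Ctrl (SD, n = 7 each), which put KO at 116% of Ctrl. On the log2 scale KO was higher by 0.22 (SE 0.0614, 95% interval 0.09 to 0.35, adjusted p = 0.013, edgeR). The call was lost when the libraries were divided by index, although the size held: it was 0.20 in the other 10 (adjusted p = 0.094) and 0.24 within indices 7 to 10 (adjusted p = 0.21). In the other 10 libraries 23.8% of tested genes were called, of the 6 genes Slc8a1, and within indices 7 to 10 it was 12%, with Slc8a1 and Fxyd1. The authors' deposited table gives 0.21.

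The Atp2b1 gene model spans 98915152 to 99026143 of chromosome 10 (mm10, plus strand), with 21 merged exons over 7130 bp. The 250 bases upstream of its start (RefSeq, GRCm38.p6, chr10:98914902-98915151, plus strand) are shown because it is the other gene that passed the test, with matches in capitals, and are those of 1 of 2 starts in the RefSeq table.
Atp2b1: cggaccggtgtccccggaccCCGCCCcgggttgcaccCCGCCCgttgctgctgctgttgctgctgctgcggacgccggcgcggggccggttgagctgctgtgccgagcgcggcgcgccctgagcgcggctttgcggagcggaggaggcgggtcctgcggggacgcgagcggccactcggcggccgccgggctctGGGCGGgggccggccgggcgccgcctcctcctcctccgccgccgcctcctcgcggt
The 3 matches were GC boxes (GGGCGG or its complement, bound by the Sp1 family), which 32.7% of promoter windows hold, and the other searched motifs had no match. G and C made up 80.8% of these bases, against 50.4% for Slc8a1 and a median of 52.4% over the 32851 windows. The GC box was absent from the Slc8a1 window. Of the genes that did not pass, Atp1b1 had 2 GC boxes in its window. Atp2b4, Fxyd1 and Fxyd5 had no match to any searched motif.

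Atp2b4 encodes PMCA4, a calcium pump known for its part in nitric oxide signalling. It was near the limit of detection, with 2 to 39 reads per library. It had 0.794, 1.84 and 4.71 CPM (lowest, median and highest) in KO libraries, against 0.345, 2.45 and 4.27 CPM in Ctrl libraries, and the groups overlapped widely. The difference was 0.07 on the log2 scale (SE 0.440, adjusted p = 0.93, edgeR), and its 95% interval of -0.86 to 0.999 leaves room for a change in either direction. The libraries with indices 7 to 10 held 3.798 and 4.71 CPM in KO and 2.62 and 4.27 CPM in Ctrl. The other libraries held 0.794 to 1.90 CPM in KO and 0.345 to 2.60 CPM in Ctrl. The fibroblast and macrophage markers given above were also higher in those 4 libraries, and their part in the Atp2b4 level was not tested.

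The partner subunits of the calcium pumps moved the other way from Atp2b1. Neuroplastin and basigin, encoded by Nptn and Bsg, bind the plasma membrane calcium pumps and are needed for their stability, and both genes fell. Nptn had 53.7, 61.0 and 67.4 CPM (lowest, median and highest) in KO libraries, against 67.95, 82.4 and 101 CPM in Ctrl libraries, with no overlap (log2 fold change -0.46, SE 0.0816, adjusted p = 4.1e-04, edgeR). Bsg had 1018, 1269 and 1587 CPM in KO libraries, against 1437, 1656 and 2022 CPM in Ctrl libraries, with overlap (log2 -0.41, SE 0.0967, adjusted p = 0.0042, edgeR). Basigin also serves monocarboxylate transporters. Calmodulin activates the pumps, and of its genes Calm2 (log2 -0.01, adjusted p = 0.95) and Calm3 (log2 -0.20, adjusted p = 0.066) did not pass in edgeR.

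Atp1b1 encodes the main beta subunit of the sodium pump in heart muscle, which brings the alpha subunit to the membrane. It had 413, 460 and 619 CPM (lowest, median and highest) in KO libraries, against 375, 446 and 485 CPM in Ctrl libraries. KO replicates 6 and 7 lay above all Ctrl libraries, and the other 5 KO libraries lay within the Ctrl range. The means were 486 ± 71.7 CPM in KO and 439 ± 36.4 CPM in Ctrl (SD, n = 7 each). The log2 fold change of 0.15 did not pass (SE 0.0851, 95% interval -0.03 to 0.33, adjusted p = 0.22, edgeR). Atp1b1 lies on chromosome 1 at 164437267 to 164458355 (minus strand, 6 merged exons, 2422 bp), and 30 bp of its exons overlap Nme7, a gene at 14.1 ± 4.74 CPM in KO and 12.8 ± 1.46 CPM in Ctrl (SD, n = 7 each).

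Of the other beta subunits of the sodium pump, Atp1b2 (log2 -0.23, adjusted p = 0.24) and Atp1b3 (log2 0.09, adjusted p = 0.36) did not pass in edgeR.

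Fxyd1 encodes phospholemman, the FXYD protein that restrains the cardiac sodium pump until it is phosphorylated. It had 209, 273 and 357 CPM (lowest, median and highest) in KO libraries, against 245, 304 and 335 CPM in Ctrl libraries, so the groups overlapped. The means were 278 ± 57.8 CPM in KO and 298 ± 28.8 CPM in Ctrl (SD, n = 7 each). The log2 fold change of -0.10 did not pass (SE 0.113, 95% interval -0.34 to 0.14, adjusted p = 0.57, edgeR). Within library indices 7 to 10 the KO libraries held 209 and 211 CPM and the Ctrl libraries 245 and 310.3 CPM, and the gene was called there (log2 -0.43, adjusted p = 0.036, edgeR, 2 libraries per group). In the other 10 the difference was 0.00 (adjusted p = 0.98, edgeR).

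Fxyd5 encodes dysadherin, an FXYD protein that raises sodium pump activity and is known from epithelia, endothelium and blood cells. It had 4 to 58 reads per library. It had 2.37, 3.25 and 9.18 CPM (lowest, median and highest) in KO libraries, against 0.690, 2.05 and 6.83 CPM in Ctrl libraries. All 7 KO libraries were above the Ctrl median and 1 was above every Ctrl library. The means were 4.24 ± 2.48 CPM in KO and 2.83 ± 2.02 CPM in Ctrl (SD, n = 7 each). The difference was 0.56 on the log2 scale (SE 0.407, adjusted p = 0.34, edgeR), and its 95% interval of -0.30 to 1.42 spans no change and a rise of the size seen for Slc8a1.

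The level of Fxyd5 followed the library index as Atp2b4 did. The libraries with indices 7 to 10 held 5.80 and 9.18 CPM in KO and 3.67 and 6.83 CPM in Ctrl. The others held 2.37 to 3.88 CPM in KO and 0.690 to 3.09 CPM in Ctrl. The 7 endothelial markers summed to 543 and 617 CPM in KO and 485 and 538 CPM in Ctrl in those 4 libraries, against 167 to 293 CPM in the other KO and 203 to 388 CPM in the other Ctrl libraries. Fibroblast and macrophage sums were higher there too, as given above. The part of these cells in the Fxyd5 level was not tested.

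Fxyd1 and Fxyd5 are neighbours on chromosome 7 (minus strand), at 31051678 to 31055656 and 31032723 to 31042322 (mm10), and 9355 bp lie between their gene models, where the table places Fxyd7. Of the 7 FXYD genes 3 were tested, and none was called, where 28.2% of all tested genes were (edgeR; 1 had an unadjusted p under 0.05, and DESeq2 called 1). With 3 genes, a count of 0 is near that share. That gene was Fxyd6, named here after its values were seen, with a log2 fold change of 0.51 and an edgeR adjusted p of 0.051.

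Per length of exon, the order of the 6 genes was the same in both groups apart from one exchange. Fxyd1 led with 391 ± 81.2 CPM per kb in KO and 419 ± 40.5 CPM per kb in Ctrl (SD, n = 7 each), the 185th highest Ctrl level of 11170 genes. Atp1b1 followed with 201 ± 29.6 CPM per kb in KO and 181 ± 15.0 CPM per kb in Ctrl. Slc8a1 stood at 14.8 ± 2.19 CPM per kb in KO and 8.32 ± 1.29 CPM per kb in Ctrl. Atp2b1 stood at 11.9 ± 1.15 CPM per kb in KO and 10.2 ± 0.281 CPM per kb in Ctrl, so that it was below Slc8a1 in KO and above it in Ctrl. Fxyd5 reached 3.08 ± 1.80 CPM per kb in KO and 2.06 ± 1.46 CPM per kb in Ctrl. Atp2b4 was lowest with 0.266 ± 0.178 CPM per kb in KO and 0.254 ± 0.157 CPM per kb in Ctrl. The exonic length counts the exons of all annotated transcripts, so a gene that uses a short transcript is understated.

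**Figure D2:**
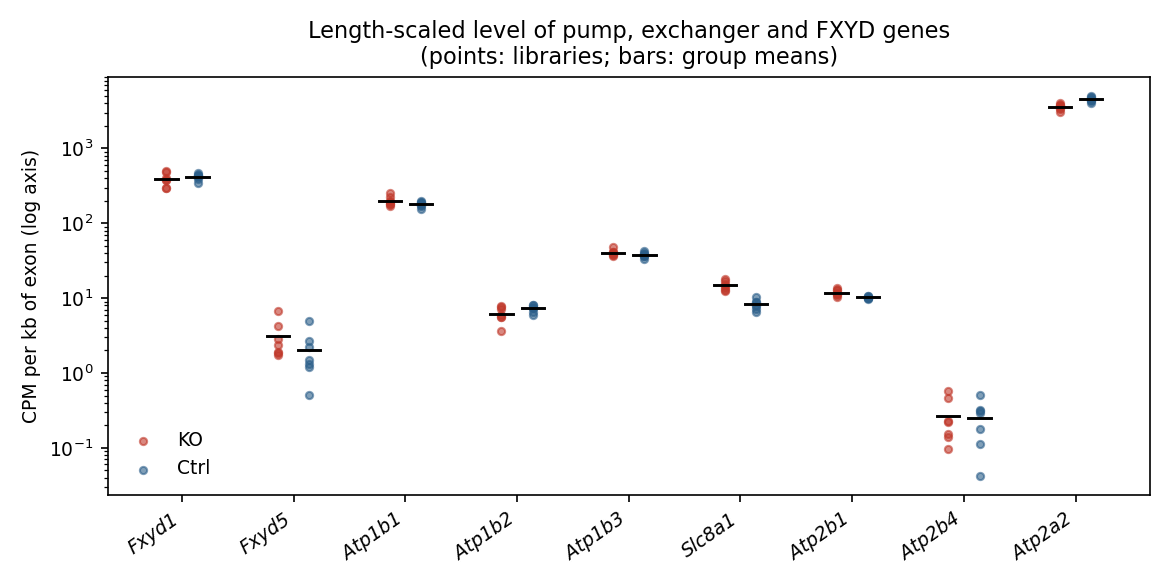
Level per length (CPM per kb of exon, log axis) of Fxyd1, Fxyd5, the sodium pump beta subunits, Slc8a1, the plasma membrane calcium pumps and the sarcoplasmic calcium pump Atp2a2; points are libraries, KO left of Ctrl, and bars are group means. Fxyd1 and Atp1b1 are the most abundant of the 6 genes described here, Slc8a1 and Atp2b1 near 10, and Fxyd5 and Atp2b4 are the lowest shown.

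Ratios of the length-scaled levels within a library do not depend on how libraries are scaled to each other, and are given as values with no test. For every 100 units of Atp2a2, the calcium pump SERCA that refills the sarcoplasmic reticulum, Slc8a1 stood at 0.351, 0.408 and 0.461 (lowest, median and highest) in KO libraries, against 0.152, 0.181 and 0.219 in Ctrl libraries. The groups did not overlap. Both genes of this ratio moved, since Atp2a2 averaged 20653 ± 1794 CPM in KO and 26253 ± 1943 CPM in Ctrl (SD, n = 7 each). Slc8a1 per unit of Atp2b1 was 1.02, 1.34 and 1.42 in KO libraries, against 0.653, 0.804 and 1.02 in Ctrl libraries, with the lowest KO library just inside the Ctrl range.

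The minor forms stayed minor in both groups. Fxyd5 made up 0.342, 0.487 and 2.20% of Fxyd1 plus Fxyd5 (lowest, median and highest) in KO libraries, against 0.107, 0.334 and 1.13% in Ctrl libraries. Atp2b4 made up 0.864, 1.97 and 4.28% of Atp2b1 plus Atp2b4 in KO libraries, against 0.420, 2.71 and 4.84% in Ctrl libraries. Both ranges overlapped between the groups.

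**Figure D3:**
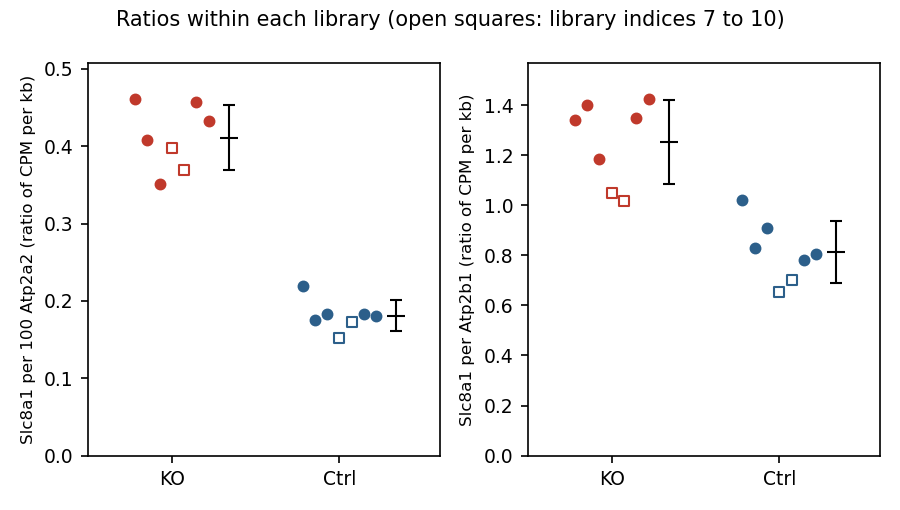
Ratios of length-scaled levels within each library (vertical axes, from 0): Slc8a1 per 100 units of Atp2a2 and Slc8a1 per unit of Atp2b1; points are libraries, open squares are library indices 7 to 10, and bars give mean ± SD. The KO libraries, at 0.351 to 0.461, lie above the Ctrl libraries, at 0.152 to 0.219, in the first panel, and the groups overlap in the second.

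Beyond the 6 genes, 44 others from 7 lists of sodium pump subunits, FXYD proteins, exchangers, calcium pump partners, bicarbonate and chloride cotransporters and membrane anchors were tested. Of these 3 were higher and 6 lower (20.5% called, against 28.2% of all tested genes), with a median log2 fold change of 0.03. The higher genes were Slc24a2, Slc12a4 and Dmd, and among the lower ones were Bsg, Nptn, Cav3 and Prkce. Slc12a4, a potassium-chloride cotransporter, averaged 137 ± 7.91 CPM in KO and 114 ± 3.78 CPM in Ctrl (SD, n = 7 each, log2 0.26, adjusted p = 6.6e-04, edgeR), with no overlap. It was the single called gene of 9 tested cotransporters, while the most abundant of them, Slc12a7, had a log2 fold change of -0.05 (adjusted p = 0.65, edgeR).

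Sodium-proton exchangers load the cell with sodium when they expel acid. Of 9 tested genes of this family and its cofactors none passed in edgeR, where 28.2% of all tested genes were called (1 had an unadjusted p under 0.05, and DESeq2 called 0), with a median log2 fold change of 0.09. The cofactor Tesc was the most abundant, with 106 ± 16.9 CPM in KO and 94.3 ± 11.5 CPM in Ctrl (SD, n = 7 each, log2 0.16, adjusted p = 0.25, edgeR).

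Among 14 tested anchors and signalling partners 1 was higher and 2 were lower (21.4% called, against 28.2% of all tested genes), and the median log2 fold change was -0.03. Dmd, which encodes dystrophin, the link between the cytoskeleton and the surface membrane, averaged 149 ± 18.8 CPM in KO and 109.8 ± 7.596 CPM in Ctrl (SD, n = 7 each, log2 0.44, adjusted p = 4.1e-04, edgeR). Cav3, the muscle caveolin, averaged 115 ± 11.5 CPM in KO and 143 ± 12.98 CPM in Ctrl (log2 -0.31, adjusted p = 0.0037, edgeR). Prkce, a protein kinase C, averaged 16.0 ± 1.49 CPM in KO and 19.8 ± 2.57 CPM in Ctrl (log2 -0.31, adjusted p = 0.023, edgeR), and its call was lost without Ctrl replicate 1 (adjusted p = 0.053), without Ctrl replicate 3 (0.0504) and among the other 10 libraries (0.097). The most abundant of this list was Spnb2, a spectrin (log2 -0.10, adjusted p = 0.55, edgeR). Within library indices 7 to 10 alone, with 2 libraries per group, Slc24a2, Nptn, Slc12a4, Dmd, Cav3 and Prkce kept their direction and lost their calls (adjusted p = 0.071 to 0.31, edgeR). The log2 fold changes there were -0.32 for Cav3 and -0.37 for Prkce, at least as large in size as over all 14 libraries. They were smaller in size for Slc24a2 (0.97), Nptn (-0.35), Slc12a4 (0.20) and Dmd (0.25).

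**Figure D4:**
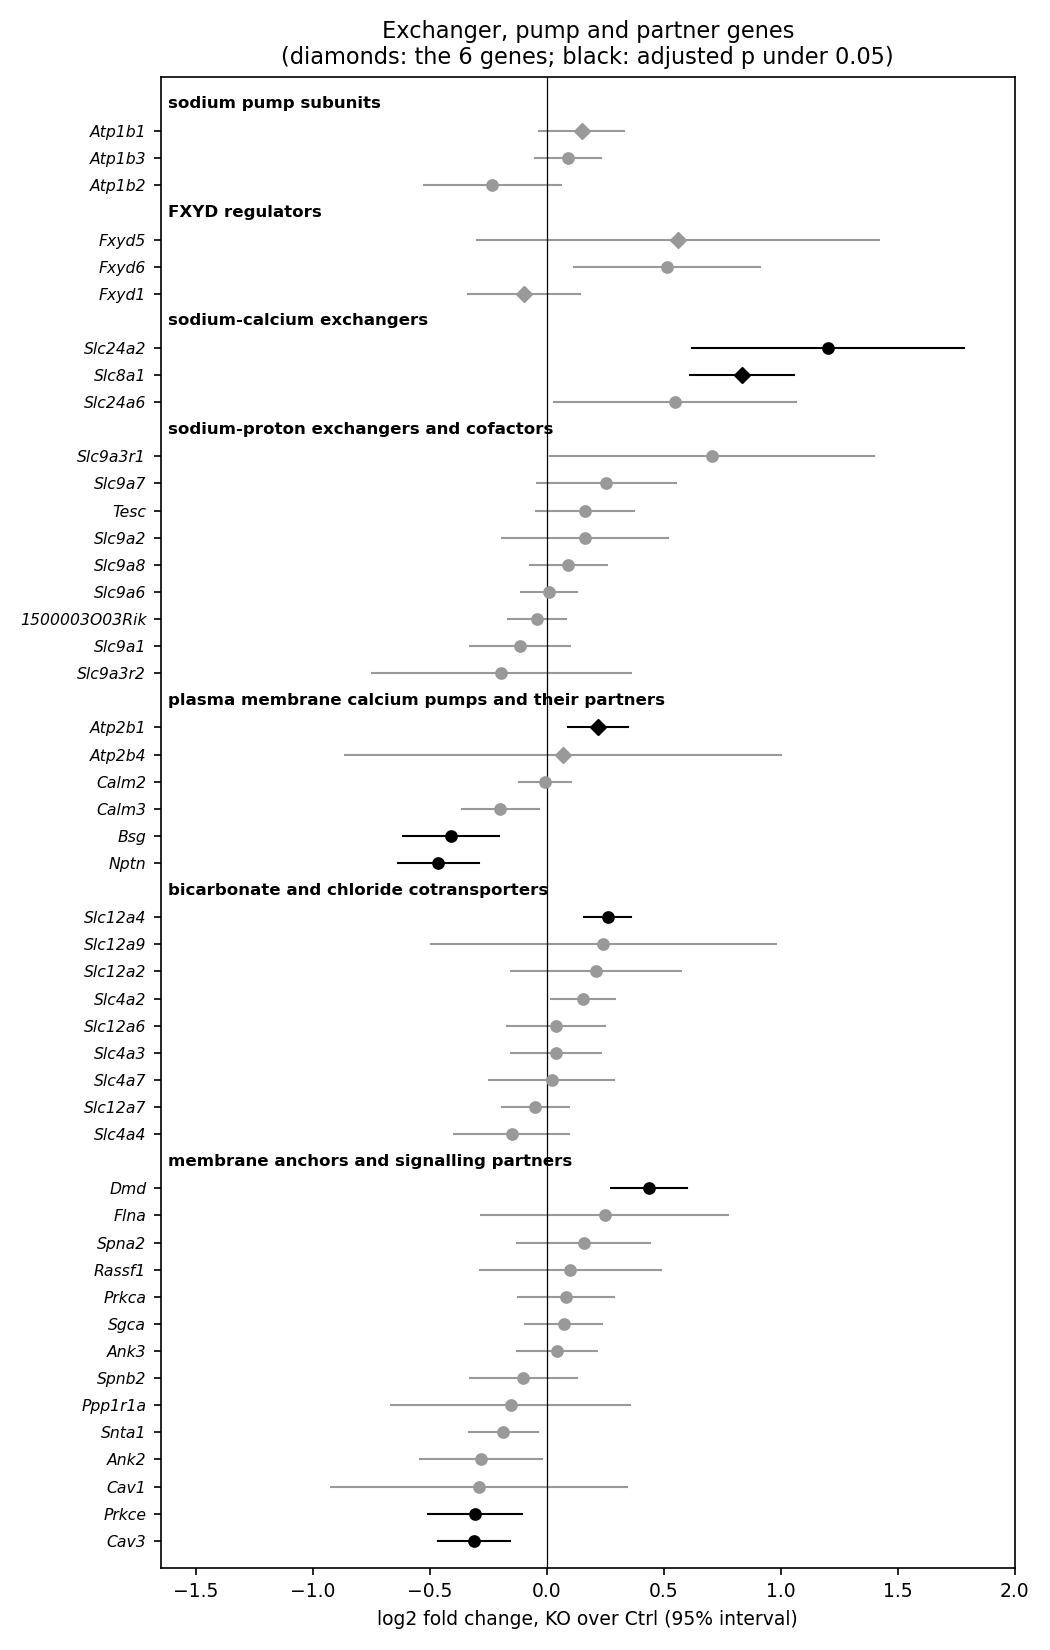
Log2 fold change of KO over Ctrl with its 95% interval (horizontal axis) for tested genes of the 7 lists that are reported here (rows); diamonds are the 6 genes described here, and black marks an adjusted p under 0.05. Slc8a1 at 0.84 and Slc24a2 at 1.20 lie farthest to the right among the called genes, and Nptn at -0.46 and Bsg at -0.41 farthest to the left.

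The fold change of Slc8a1 was nearly the same in both sets of libraries. It was 0.82 on the log2 scale among the other 10 libraries (SE 0.0936, adjusted p = 3.0e-05) and 0.85 within indices 7 to 10 (SE 0.0987, adjusted p = 4.8e-04, edgeR). Atp1b1 also held its size, with 0.14 in either set. Fxyd5 stood at 0.65 among the other 10 (SE 0.294) and at 0.47 within indices 7 to 10 (SE 0.334), and Atp2b4 at -0.14 (SE 0.406) and 0.30 (SE 0.334). A test of the difference between the sets called no gene (edgeR interaction term; 339 of 11170 genes, 3.03%, had an unadjusted p under 0.05). Fxyd1 had the smallest unadjusted p of the 6 genes in that test (0.031, adjusted p = 1.0, edgeR).

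**Figure D5:**
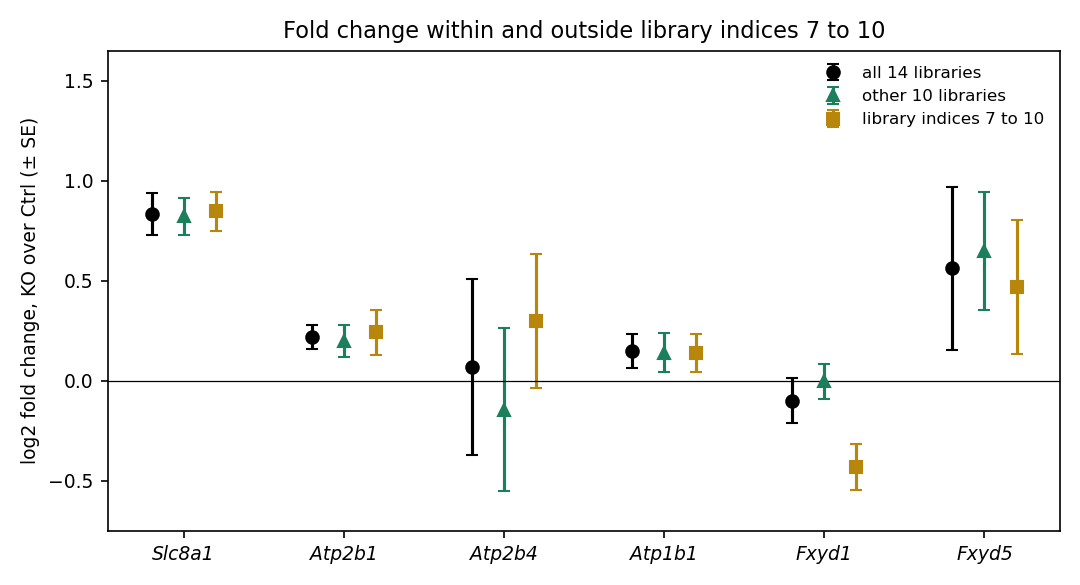
Log2 fold change of KO over Ctrl ± SE (vertical axis) for each of the 6 genes in all 14 libraries (circles), the other 10 libraries (triangles) and library indices 7 to 10 (squares). Slc8a1 lies between 0.82 and 0.85 in all 3, and Fxyd1 lies at 0.00 among the other 10 and at -0.43 within indices 7 to 10.

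To see which genes varied with these 6 from library to library, each gene's log2 CPM was taken as its deviation from the mean of its own group and index set. The coefficients are descriptions over 14 libraries, which share depth and library quality. Slc8a1 varied most like Nbea (r = 0.91), Tnik (0.89) and Ppfibp1 (0.89). These have 10983, 7336 and 4875 bp of exon, against 18599 bp for Slc8a1. Atp2b1 varied most like Hip1 (0.94), Asb1 (0.93) and Pdzd8 (0.93), genes of 6072 to 7854 bp of exon. Fxyd1 varied most like Ndufb2, Cox5b and Uqcrh (0.98 each), subunits of the respiratory chain with 455 to 569 bp of exon, near the 712 bp of Fxyd1.

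Atp1b1 (2422 bp of exon) varied most like Nudt4 (0.95, 3231 bp) and the ribosomal protein gene Rpl29 (0.94, 710 bp). Fxyd5 varied most like Kctd10 (0.93), Sp100 (0.90) and Rsu1 (0.89), and Atp2b4 most like Ctdspl2 (0.89), Cald1 (0.89) and Nid2 (0.89). The genes most like Fxyd5 (1377 bp) have 1412 to 3098 bp of exon. Those most like Atp2b4 (8292 bp) have 4035 to 4884 bp. The part of exon length in these likenesses was not tested. Among the 6 genes themselves, Atp2b4 with Fxyd5 (0.66), Slc8a1 with Atp2b1 (0.60) and Atp1b1 with Fxyd1 (0.57) had the highest coefficients, and Atp2b1 with Fxyd1 (-0.66) the lowest.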

How the data were processed

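Poly(A) RNA of sorted mouse cardiomyocytes was sequenced from SMART-Seq v4 and Nextera XT libraries, per the labels' protocols. The authors deposited raw read counts (whole numbers) for 23337 genes, with exon positions and exonic lengths. STAR, featureCounts, DESeq2, DESeq and build mm10 are named per the submitters' processing notes, without versions, annotation or strand setting, so reads of overlapping genes on opposite strands cannot be told apart. From the comparison table that the authors deposited, log2 fold changes were copied for comparison, and its mean signal, score and p-values were not used.

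The test was edgeR 4.0.16 (R 4.3.3), quasi-likelihood F test on the deposited counts, filterByExpr, TMM scaling, no covariates, two-sided, with Benjamini-Hochberg adjustment over the 11170 genes that passed. CPM are relative to TMM-scaled counts of those genes. SE is the fold change over the square root of F. Alternatives were other scalings, DESeq2 1.42.0, no filter, a replicate block, a term for library indices 7 to 10, either set of libraries alone, and each library left out.

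The 6 genes and the lists were chosen with earlier results of these data known. Named were the 6 genes, Ryr2, up to 6 called genes with the smallest p and the most abundant gene of each list, and the 3 genes most like each of the 6 at a mean log2 CPM of at least 3 (prior count 2). Genes named to complete a list were chosen after their values were seen, as were the sets by length and by level and the ratio of Slc8a1 to Atp2b1. A few genes of these lists are left out of the text and figures. Atrial, smooth muscle, lymphocyte, erythroid, Schwann and epicardial marker lists were also summed: the medians in KO and Ctrl libraries were 1767 and 410.2 CPM (atrial), 1249 and 819 CPM (smooth muscle and pericyte), 0.271 and 0.974 CPM (lymphocyte), 9.94 and 9.31 CPM (erythroid), and 12.3 and 11.7 CPM (Schwann and epicardial). Among the atrial markers Nppa alone was called higher, and Myl7, Sln and Myl4 had negative log2 fold changes, as given above. Hba-a1, Hba-a2 and Hbb-b1 were at 0 in every library. The labels name no animals, so the p-values rest on sample-to-sample spread that may be technical. Replicates differed beyond sampling noise (chi-square of at least 4.73 per degree of freedom). All count columns matched a sample. Promoter sequences are from RefSeq (GRCm38.p6).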

Additional observations from a re-analysis of the deposited data

How the results depend on the processing

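Slc8a1 kept its direction and its call under every alternative run, with a log2 fold change of 0.78 to 0.90 on leaving out each library. Atp2b1 kept its direction, lost its call in the other 10 (0.20) and in indices 7 to 10 (0.24), and ranged from 0.19 to 0.25 with each library left out. Atp2b4 reversed among the other 10 libraries (-0.14) and ranged from -0.25 to 0.33 with each library left out. Fxyd1 was called within indices 7 to 10 (-0.43), and otherwise neither Fxyd1 nor Atp1b1 was called. The difference between index sets reversed without the filter for Slc8a1 (-0.013) and Atp1b1 (-0.0406), and was not called for any of the 6 genes.

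Replicate numbers were not shown to pair the samples: deviations of same-numbered libraries had a correlation over 0.1 in 6 of 7 pairs, and 2 of 7 KO libraries were most alike with their own-numbered Ctrl library. With the replicate number as a block Fxyd5 was called (0.61, adjusted p = 0.047, edgeR), and no other of the 6 genes changed its call. Fxyd5 ranged from 0.27 to 0.95 with each library left out.

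Over all genes 1621 higher and 1528 lower calls became 625 and 715 within indices 7 to 10, where 4 libraries remain. Of the 44 other exchanger, pump and partner genes, the 3 higher calls became 7 with the block, 6 with a term for the index set, and 0 within indices 7 to 10 (edgeR; 3 had an unadjusted p under 0.05 there). They ranged from 3 to 6 with each library left out, the highest without KO replicate 7. The 6 lower calls became 10 with the block and 2 within indices 7 to 10. The cause of these shifts was not tested. Other scalings and DESeq2 changed no call of the 6 genes. Counts of 2 to 58 reads per library limit Atp2b4 and Fxyd5.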
